A study of Homo sapiens with 18 samples.

Results

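The dual-specificity MAP kinase phosphatases described here are 10 genes chosen by name from the DUSP family: DUSP1, DUSP2, DUSP4, DUSP5, DUSP6, DUSP7, DUSP8, DUSP10, DUSP14 and DUSP16. They were 10 of the 60642 gene symbols counted, and 7 of them were among the 15298 genes with enough counts to be tested. The RNA-seq came from MDA-MB-231, an established human triple-negative breast cancer line. All cells were transfected with SMART-pool siRNA, against PRMT5 (siPRMT5), against HP1γ (siHP1g, gene CBX3) or with a non-specific pool (siNS). They were then treated for 8 h with 100 nM dexamethasone (Dex, a synthetic glucocorticoid) or with its ethanol vehicle (Eth). The 6 conditions had 3 libraries each, 18 in all, with 8682992 to 12472381 counts on genes per library. The study calls the libraries of a condition biological replicates, and the p-values measure the spread between these samples.

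MAP kinases such as ERK, JNK and p38 are switched on by phosphorylation of a threonine and a tyrosine in their activation loop. Dual-specificity phosphatases remove both phosphates and so switch the kinases off. Several are themselves transcribed in response to MAP kinase signalling, which makes them negative feedback regulators, and DUSP1 is also a long-known target of the glucocorticoid receptor (GR) through which glucocorticoids restrain p38 and JNK.

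The siRNAs lowered their targets. PRMT5 was at 226, 262 and 259 CPM (counts scaled to the library total) in siNS Eth libraries and at 8.37, 7.75 and 6.1 CPM in siPRMT5 Eth libraries, 2.97% of the control level, with 4.39% left after Dex. CBX3 was at 274, 234 and 258 CPM in siNS Eth libraries and at 9.22, 9.91 and 10.5 CPM in siHP1g Eth libraries, 3.87% of the control level, with 5.96% left after Dex. Each siRNA also went with a smaller difference in the other target. PRMT5 in siHP1g cells was at 211, 206 and 209 CPM with Eth, and with Dex at 177, 199 and 189 CPM against 244, 247 and 226 CPM in siNS cells, below siNS cells in both cases. CBX3 in siPRMT5 cells was at 224.5, 218 and 229 CPM with Eth, below siNS Eth, and overlapped with siNS cells with Dex. The cause of these differences, and their part in the DUSP results, was not tested. The mesenchymal markers usual for MDA-MB-231 were abundant (VIM 5440 to 9590 CPM, CD44 506 to 857 CPM, CAV1 370 to 824 CPM, AXL 182 to 1000 CPM, FN1 134 to 670 CPM), while the hormone receptor genes ESR1 and PGR stayed at or below 0.207 and 0.218 CPM, CDH1 at or below 0.104 CPM and KRT5 at 0 in 18 libraries. ERBB2 (24.5 to 36 CPM), EPCAM (8.57 to 14 CPM) and GATA3 (2.68 to 7.48 CPM) were present at lower levels. Of 5 markers of blood, endothelial and liver cells, PECAM1 was the most abundant (1.1 to 8.15 CPM), and PTPRC, CD3E, VWF and ALB stayed at or below 0.713 CPM. PTPRC was at 0 in 11 libraries, CD3E and ALB in 17 each, and VWF in 1. The sum of the 5 was 1.88, 2.04 and 2.18 CPM in siNS Eth, 4.42, 4.25 and 4.9 CPM in siNS Dex, 3.29, 3.37 and 2.43 CPM in siHP1g Eth, and 3.7, 4.4 and 4.89 CPM in siHP1g Dex. It was 3.76, 3.87 and 2.9 CPM in siPRMT5 Eth and 5.96, 6.99 and 8.26 CPM in siPRMT5 Dex. That sum was thus higher with Dex in each kind of cell, as was DUSP1. With Eth it was also higher in every siHP1g and siPRMT5 library than in any siNS library. With Dex it was higher than siNS in every siPRMT5 library, while siHP1g and siNS overlapped. The part of this sum in the DUSP results was not tested. Counts of replicate libraries differed by 2.07 to 12 times counting noise (chi-square per degree of freedom), the most between replicates 1 and 3 of siHP1g Dex.

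Transcript levels can be compared between genes only per length. Per kilobase of annotated exon, over the 18 libraries, DUSP5 had the highest mean level at 136 CPM per kb, ahead of DUSP6 (86 CPM per kb) and DUSP1 (64 CPM per kb). DUSP4 (14.9 CPM per kb), DUSP7 (13.8 CPM per kb) and DUSP16 (9.75 CPM per kb) were lower, and DUSP10 was the scarcest of the tested genes at 2.15 CPM per kb. The order of the first 3 differed between conditions. DUSP5 was first in siNS and siHP1g cells, followed by DUSP6 with Eth and by DUSP1 with Dex (109 against 74.6 CPM per kb for DUSP6 in siNS cells). In siPRMT5 cells DUSP6 was first with Eth (136 CPM per kb), where DUSP1 (18.6) was below DUSP4 (20.2), and with Dex DUSP1 (124) and DUSP6 (123) were above DUSP5 (109). Whether the library kit read whole transcripts or transcript ends was not given, and in the latter case a level per length would not be comparable. In CPM not divided by length, DUSP6 (477) was above DUSP5 (277) and DUSP1 (249) in siPRMT5 cells with Dex. In siNS cells with Dex, DUSP6 (288 CPM) was then above DUSP1 (219 CPM). The exons of DUSP6 overlap an antisense gene on the other strand, and the strand setting was not given, so counts of the 2 genes cannot be told apart there.

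The remaining 3 members fell under the filter. DUSP2, a nuclear phosphatase induced in activated immune cells, had 3 counts in all, 1 each in siNS Dex replicate 3, siPRMT5 Dex replicate 1 and siPRMT5 Dex replicate 3. DUSP8, directed at JNK and p38, and DUSP14, an atypical member without the MAP kinase binding domain, were listed at 0 in all 18 libraries. A count of 0 allows up to 3 counts, 0.352 CPM in the shallowest library, for counting error only. For DUSP8 and DUSP14 the 0 cannot be read as a level: 100% of the 31-base words of the DUSP8 exons and 99.2% of those of DUSP14 also occur on alternate contigs of hg38, against 0.0851% or less for the other members. Of the 10 coding genes within 500 kb of DUSP14, 4 had no count and 8 had fewer than 18 counts over all libraries, while DDX52, with 97.4% of its words on alternate contigs, had 360. Of the 20 near DUSP8, 10 had no count and 15 had fewer than 18, while CTSD had 12800, TOLLIP 9818 and MOB2 3792. Of the DUSP8 words 12.4% were also repeated on the chromosomes, and the pseudogene DUSP8P5 had 354 counts, 9 to 29 per library. Whether the authors mapped to a genome with alternate contigs was not given. The part of such contigs, or of repeated words, in these zeros was not tested.

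With Dex, DUSP1 rose and DUSP10 fell in siNS, siHP1g and siPRMT5 cells alike. A Dex response was called at an adjusted p under 0.01 and a change of at least 1.5-fold. In siNS cells 2 of 7 tested members passed, where 2.71% of all genes did (1 higher, against 1.65% of genes, and 1 lower, against 1.06%). In siHP1g cells 2 of 7 passed against 1.67% of genes, 1 higher (1.01%) and 1 lower (0.66%), and in siPRMT5 cells 2 of 7 against 5.44%, 1 higher (2.69%) and 1 lower (2.75%). Depletions were called at an adjusted p under 0.05. HP1γ depletion changed 4 of 7 members with Eth against 31.8% of genes (3 higher, against 16.5%, and 1 lower, against 15.2%) and 3 of 7 with Dex against 24% (2 higher, against 11.7%, and 1 lower, against 12.3%). PRMT5 depletion changed 5 of 7 with Eth against 42.1% of genes (3 higher, against 20.6%, and 2 lower, against 21.6%) and 6 of 7 with Dex against 42.4% (4 higher, against 20.6%, and 2 lower, against 21.9%). With so many genes called, the depletion counts say little about the DUSP genes as a group, and the results below are those of single genes. In bulk RNA, fewer cells that make an mRNA and less of it per cell cannot be told apart.

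The promoters of 8 of the 10 members were in the RefSeq table (build GRCh38.p14), each window running from 250 bases before to 50 bases after a transcript start; DUSP4 and DUSP5 were not in it. The windows of DUSP1, DUSP6, DUSP10 and DUSP16 are shown because the results turn on these genes: DUSP1 at chr5:172771146-172771445, DUSP6 at chr12:89352452-89352751, DUSP10 at chr1:221742040-221742339 (the more upstream of its 2 starts) and DUSP16 at chr12:12562814-12563113, all on the minus strand and written 5′ to 3′ along the gene. Capitals mark the cAMP response element TGACGTCA in DUSP1 and, in DUSP10 and DUSP16, the SP1 box GGGCGG on either strand; the DUSP6 window held none of the motifs searched.
DUSP1: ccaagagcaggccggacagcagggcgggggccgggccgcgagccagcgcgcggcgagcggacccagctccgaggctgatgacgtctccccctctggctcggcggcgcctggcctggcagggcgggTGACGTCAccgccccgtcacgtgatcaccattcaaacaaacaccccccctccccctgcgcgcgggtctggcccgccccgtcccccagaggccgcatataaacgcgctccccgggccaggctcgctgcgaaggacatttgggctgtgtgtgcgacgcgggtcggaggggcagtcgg
DUSP6: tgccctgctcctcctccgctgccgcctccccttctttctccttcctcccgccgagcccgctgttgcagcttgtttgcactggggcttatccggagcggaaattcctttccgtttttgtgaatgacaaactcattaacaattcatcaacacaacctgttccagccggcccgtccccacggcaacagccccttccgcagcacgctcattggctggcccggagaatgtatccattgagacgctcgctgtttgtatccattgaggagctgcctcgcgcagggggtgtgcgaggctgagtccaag
DUSP10: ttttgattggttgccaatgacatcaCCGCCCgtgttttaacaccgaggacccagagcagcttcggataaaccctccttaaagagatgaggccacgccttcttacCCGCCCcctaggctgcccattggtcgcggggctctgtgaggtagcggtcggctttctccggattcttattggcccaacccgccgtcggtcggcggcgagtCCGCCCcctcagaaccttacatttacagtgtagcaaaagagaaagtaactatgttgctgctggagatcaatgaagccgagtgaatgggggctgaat
DUSP16: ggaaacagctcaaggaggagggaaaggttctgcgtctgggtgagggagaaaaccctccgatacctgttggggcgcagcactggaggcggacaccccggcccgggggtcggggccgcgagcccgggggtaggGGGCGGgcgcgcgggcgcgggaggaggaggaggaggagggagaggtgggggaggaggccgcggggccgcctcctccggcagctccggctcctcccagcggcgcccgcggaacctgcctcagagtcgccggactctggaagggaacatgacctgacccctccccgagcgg
The element in DUSP1 lay 125 to 118 bases before the start, and TGACGTCA was found in 1.85% of all 35116 promoter windows. The DUSP8 window held 2 such elements, 118 to 111 and 74 to 67 bases before its start. DUSP1 also held 4 SP1 boxes, 2 of them flanking that element. Its GC content was 73.3% against a median of 58.7% over all windows, and DUSP16 (73.3%), DUSP2 (75%), DUSP7 (78%), DUSP8 (78.3%) and DUSP14 (81%) equalled or exceeded it, while DUSP6 (58.3%) and DUSP10 (55%) did not. GGGCGG was common, in 45% of windows, and DUSP10 held 3 in the window shown and DUSP16 held 1. The hexamer AGAACA of glucocorticoid response elements (14.8% of windows), its palindrome of AGAACA and TGTTCT with 3 bases between them (0.00285%), the AP-1 site TGANTCA (7.71%) and the CArG box (1.29%) were searched on both strands and were in none of the 9 windows of the 8 members. This says only that those letters are not in these windows.

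DUSP1 is a nuclear phosphatase of p38, JNK and ERK encoded at chr5:172768096-172771195. Among the 7 tested members it had the widest range, with a ratio of 6.65 between its highest and lowest condition means. It was at 74.1, 81.6 and 74.8 CPM in siNS Eth libraries and at 217, 209.5 and 231.4 CPM in siNS Dex libraries. All Dex libraries were above all Eth libraries, and the log2 fold change was 1.51 (SE 0.075, adjusted p = 4.46e-14), a 2.86-fold rise. In siHP1g cells it was at 51.4, 50.5 and 50.7 CPM with Eth and at 133, 137 and 148 CPM with Dex. Here too the groups did not overlap, and DUSP1 rose 2.74-fold (log2 fold change 1.45, SE 0.077, adjusted p = 2.75e-13). In siPRMT5 cells it was at 38.1, 34.9 and 39.2 CPM with Eth and at 275, 241 and 230.9 CPM with Dex. This was the steepest rise, 6.64-fold (log2 fold change 2.73, SE 0.0804, adjusted p = 5.4e-19), from the lowest starting level.

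Both depletions lowered DUSP1 in vehicle-treated cells. HP1γ depletion left 66.2% of it (log2 fold change −0.60, SE 0.0787, adjusted p = 2.49e-06) and PRMT5 depletion left 48.7% (log2 fold change −1.04, SE 0.0815, adjusted p = 1.33e-10), with no overlap between the libraries. With Dex the depletions parted. HP1γ depletion again left less DUSP1, 63.5% (log2 fold change −0.65, SE 0.072, adjusted p = 2.02e-07), whereas after PRMT5 depletion the log2 fold change was 0.18 (SE 0.071, adjusted p = 0.0425). That last call was weak: siPRMT5 Dex replicate 3, at 230.9 CPM, lay below siNS Dex replicate 3, at 231.4 CPM. It was lost without siNS Dex replicate 1 (adjusted p = 0.0913), siPRMT5 Dex replicate 1 (0.243), siNS Dex replicate 2 (0.142) or siHP1g Eth replicate 2 (0.0517), with no filter on low counts (0.134) and with the 6 libraries of the comparison alone (0.0613), in a range of adjusted p from 0.0177 to 0.243 over 25 alternatives. In order of mean level the conditions ran siPRMT5 Dex (249 ± 23.1 CPM, SD, n = 3), siNS Dex (219 ± 11.1), siHP1g Dex (139 ± 7.42), siNS Eth (76.8 ± 4.18), siHP1g Eth (50.9 ± 0.487) and siPRMT5 Eth (37.4 ± 2.25). Of neighbours in that order, siPRMT5 Dex and siNS Dex overlapped and the others did not.

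The change of the DUSP1 response itself was tested as a difference of log2 fold changes. In siPRMT5 cells the response was larger than in siNS cells by 1.22 (SE 0.108, 95% confidence interval 0.996 to 1.441, adjusted p = 7.96e-08). In CPM the mean rose by 211 in siPRMT5 cells and by 143 in siNS cells. The difference on the log2 scale thus joins a lower vehicle level (−1.04) to a slightly higher mean Dex level (0.18), whose call was weak and whose libraries overlapped. In siHP1g cells the difference was −0.06 (interval −0.28 to 0.16, adjusted p = 0.819), while the rise in CPM was 88.6. The DUSP1 difference in siPRMT5 cells was called in all 25 alternatives, between 1.15 and 1.28.

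DUSP4, a nuclear phosphatase of ERK and JNK, was at 92.3, 98.2 and 85.1 CPM in siNS Eth libraries and at 148, 142 and 150.1 CPM in siPRMT5 Eth libraries. The groups were well apart, and DUSP4 rose with PRMT5 depletion by a log2 fold change of 0.67 (SE 0.0678, adjusted p = 1.17e-08). With Dex it was at 95.6, 87 and 90.9 CPM in siNS cells and at 119, 112 and 118 CPM in siPRMT5 cells. It was again higher in every depleted library, with a smaller log2 fold change of 0.35 (SE 0.0677, adjusted p = 0.000165). Dex itself gave DUSP4 a log2 fold change of −0.01 in siNS cells (adjusted p = 0.954) and −0.34 in siPRMT5 cells (SE 0.0668, adjusted p = 0.000579), the latter under the limit of 1.5-fold. Between those responses the difference was −0.33 (adjusted p = 0.0543). It passed the threshold without siHP1g Dex replicate 1 (adjusted p = 0.0435) or siNS Eth replicate 2 (0.0308), with DESeq2 (0.0202) and with at least 10 counts in every library (0.0492), in a range of 0.0202 to 0.169.

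In siHP1g cells DUSP4 did not pass the test against siNS. It was at 107, 101 and 102 CPM in siHP1g Eth libraries and at 106, 99 and 102 CPM in siHP1g Dex libraries, with log2 fold changes against siNS of 0.17 with Eth (adjusted p = 0.0647) and 0.17 with Dex (adjusted p = 0.0782). The comparison with Eth passed without siNS Eth replicate 2 (adjusted p = 0.035) and with library size as the only scaling (0.0167, range 0.0167 to 0.385), and that with Dex passed with library size only (0.0102, range 0.0102 to 0.315). In order of mean the conditions ran siPRMT5 Eth (147 ± 4.19 CPM, SD, n = 3), siPRMT5 Dex (116 ± 3.9), siHP1g Eth (103 ± 3.35), siHP1g Dex (102 ± 3.57), siNS Eth (91.9 ± 6.52) and siNS Dex (91.2 ± 4.27). The siHP1g pair overlapped and so did the siNS pair, and the widest ratio of means was 1.61.

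DUSP5, a nuclear phosphatase specific for ERK encoded at chr10:110497907-110511533, was at 308, 346 and 328 CPM in siNS Eth libraries and at 411.5, 383 and 421 CPM in siNS Dex libraries. The Dex libraries were all higher, with a log2 fold change of 0.31 (SE 0.0651, adjusted p = 0.00213), which is 1.24-fold and under the fold limit. In siPRMT5 cells it was at 285, 272 and 282 CPM with Eth and at 293, 263 and 275 CPM with Dex, and these groups overlapped (log2 fold change −0.02, adjusted p = 0.91). PRMT5 depletion thus left DUSP5 lower with Eth (log2 fold change −0.23, SE 0.0655, adjusted p = 0.00677) and further below siNS with Dex (−0.55, SE 0.0653, adjusted p = 1.87e-07). The mean with Dex minus that with Eth was 77.8 CPM in siNS cells, 27.7 CPM in siHP1g cells and −3.17 CPM in siPRMT5 cells.

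The DUSP5 responses in siPRMT5 and siNS cells differed by −0.32 (SE 0.0924, adjusted p = 0.047), a call at the edge of the threshold. It held in 8 of 25 alternatives, with adjusted p from 0.0107 to 0.168. It was lost without siNS Eth replicate 1 (0.168) or 3 (0.107), siNS Dex replicate 1 (0.123) or 3 (0.143), siPRMT5 Eth replicate 1 (0.1), 2 (0.0715) or 3 (0.0795), and siPRMT5 Dex replicate 2 (0.149) or 3 (0.0832). The same held without siHP1g Eth replicate 1 (0.0695), 2 (0.0627) or 3 (0.0723) or siHP1g Dex replicate 2 (0.0712), and with DESeq2's size factors (0.0503), library size only (0.0527), no filter (0.0567) or the libraries of the comparison alone (0.0532).

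In siHP1g cells DUSP5 was at 370.2, 373 and 384 CPM with Eth and at 377, 408 and 425.5 CPM with Dex. The Eth libraries were all above those of siNS Eth (log2 fold change 0.20, SE 0.0651, adjusted p = 0.0217), and the Dex libraries overlapped with siNS Dex (log2 fold change −0.01, adjusted p = 0.951). The call with Eth was lost without siNS Eth replicate 1 (adjusted p = 0.138) or 3 (0.0861), or without siHP1g Eth replicate 1 (0.0508) or 3 (0.0875), in a range of 0.00486 to 0.138 over 25 alternatives. The order of means was siNS Dex (405 ± 20.1 CPM, SD, n = 3), siHP1g Dex (403 ± 24.7), siHP1g Eth (376 ± 7.14), siNS Eth (327 ± 18.8), siPRMT5 Eth (280 ± 6.8) and siPRMT5 Dex (277 ± 15.1). The first 3 overlapped with each other and the last 2 did too, which set siPRMT5 cells below the rest.

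DUSP6, the cytoplasmic phosphatase selective for ERK and a classical feedback gene of that pathway, is encoded at chr12:89347235-89352501. It was at 229, 218 and 216 CPM in siNS Eth libraries and at 531, 505.5 and 540 CPM in siPRMT5 Eth libraries. No library of either group came near the other, and DUSP6 rose 2.38-fold with PRMT5 depletion (log2 fold change 1.25, SE 0.0624, adjusted p = 3e-14). With Dex it was at 299, 278 and 286 CPM in siNS cells and at 492, 468 and 469.9 CPM in siPRMT5 cells. The gap was narrower than with Eth, 1.66-fold (log2 fold change 0.73, SE 0.0615, adjusted p = 5.23e-10).

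The Dex response of DUSP6 differed between these cells. In siNS cells DUSP6 had a log2 fold change of 0.38 with Dex (SE 0.0621, adjusted p = 9.1e-05), which at 1.3-fold was under the fold limit, and in siPRMT5 cells it had −0.14 (adjusted p = 0.128). The difference between those responses was −0.52 (SE 0.0869, adjusted p = 0.000916), and it was called in all 25 alternatives, between −0.55 and −0.48. In siHP1g Eth libraries DUSP6 was at 209, 238 and 224 CPM, overlapping with siNS Eth (log2 fold change 0.02, adjusted p = 0.872). With Dex it was at 265, 253 and 251 CPM, below every siNS Dex library, with a log2 fold change of −0.17 (adjusted p = 0.0506). That value passed 0.05 in 8 of 25 alternatives (range 0.0181 to 0.354): DESeq2 (0.0181), at least 10 counts in every library (0.0432), and without siPRMT5 Eth replicate 1 (0.0432) or 2 (0.0396), siHP1g Eth replicate 1 (0.0478), siHP1g Dex replicate 1 (0.0461), siNS Dex replicate 2 (0.0456) or siNS Eth replicate 3 (0.0473). The means ran siPRMT5 Eth (525 ± 17.7 CPM, SD, n = 3), siPRMT5 Dex (477 ± 13.1), siNS Dex (288 ± 10.9), siHP1g Dex (256.4 ± 7.37), siHP1g Eth (224 ± 14.3) and siNS Eth (221 ± 7.2), and of neighbours siHP1g Eth and siNS Eth overlapped.

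DUSP7, a close relative of DUSP6 in the cytoplasm encoded at chr3:52048919-52056571, also rose with PRMT5 depletion. It was at 62.7, 69.7 and 65.2 CPM in siNS Eth libraries and at 89.4, 93.5 and 88.7 CPM in siPRMT5 Eth libraries, a rise in every library (log2 fold change 0.46, SE 0.0733, adjusted p = 1.52e-05). With Dex it was at 72.4, 69.7 and 80.6 CPM in siNS cells and at 93, 94.9 and 91.3 CPM in siPRMT5 cells (log2 fold change 0.33, SE 0.0719, adjusted p = 0.000651). PRMT5 depletion thus raised DUSP7 under both treatments. In siHP1g cells it was at 74.7, 67.1 and 71.8 CPM with Eth and at 70.6, 77.1 and 71.6 CPM with Dex, overlapping with siNS under both treatments (log2 fold changes 0.11 and −0.02, adjusted p = 0.271 and 0.848). Dex gave DUSP7 a log2 fold change of 0.17 in siNS cells (adjusted p = 0.157), and its responses in siPRMT5 and siNS cells differed by −0.13 (adjusted p = 0.526). The means ran siPRMT5 Dex (93.1 ± 1.81 CPM, SD, n = 3), siPRMT5 Eth (90.5 ± 2.57), siNS Dex (74.3 ± 5.67), siHP1g Dex (73.1 ± 3.51), siHP1g Eth (71.2 ± 3.79) and siNS Eth (65.9 ± 3.55), with the 2 siPRMT5 conditions overlapping at the top and each neighbour among the other 4 overlapping the next.

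**Figure D1:**
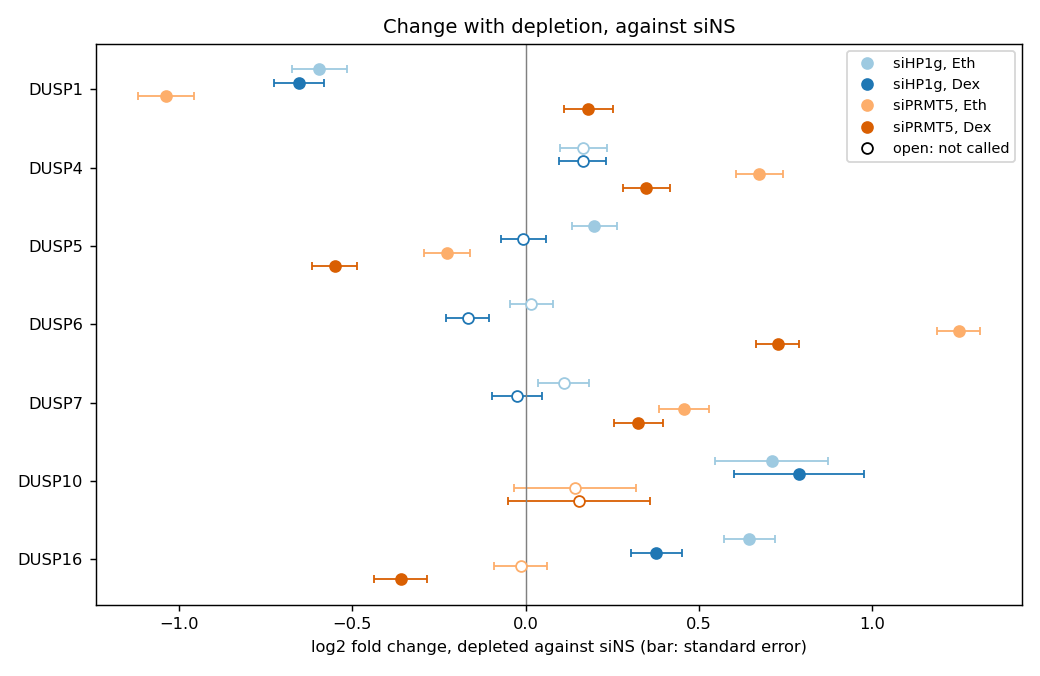
Log2 fold change of each tested member with HP1γ or PRMT5 depletion against siNS, with Eth and with Dex; points are the fitted values (open where not called) and the bars their standard errors. DUSP6 stood highest after PRMT5 depletion with Eth (1.25), DUSP1 lowest (−1.04), and DUSP16 rose with HP1γ depletion (0.65 with Eth).

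DUSP10, a phosphatase of JNK and p38 encoded at chr1:221701424-221742089, was scarce, with 34 to 117 counts per library. It was at 5.96, 5.2 and 7.15 CPM in siNS Eth libraries and at 3.27, 3.7 and 3.63 CPM in siNS Dex libraries. Every Dex library was lower, and DUSP10 fell to 57.8% (log2 fold change −0.79, SE 0.192, adjusted p = 0.00755). In siHP1g cells it was at 9.76, 9.63 and 10.5 CPM with Eth and at 5.43, 7.14 and 5.83 CPM with Dex (log2 fold change −0.71, SE 0.158, adjusted p = 0.00503). In siPRMT5 cells it was at 5.37, 8.45 and 6.5 CPM with Eth and at 4.4, 3.29 and 4.19 CPM with Dex (log2 fold change −0.78, SE 0.186, adjusted p = 0.00373). Every Dex library was below every Eth library in both. The responses in siHP1g and siPRMT5 cells differed from that in siNS cells by 0.08 (interval −0.43 to 0.59) and 0.01 (interval −0.53 to 0.56), wide intervals in which a sizeable difference cannot be told apart from none.

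At these counts the Dex calls for DUSP10 depended on single libraries, while the sign did not. In siNS cells the call was lost without siNS Eth replicate 1 (adjusted p = 0.0202) or 3 (0.0673), siNS Dex replicate 1 (0.0445), 2 (0.0172) or 3 (0.0258), or siHP1g Eth replicate 2 (0.0101), in a range of 0.00427 to 0.0673. In siHP1g cells it was lost without siHP1g Eth replicate 1 (0.0175), 2 (0.0148) or 3 (0.0351), siHP1g Dex replicate 1 (0.0385) or 3 (0.0222), with DESeq2 (0.0107) and with the libraries of the comparison alone (0.0112), in a range of 0.00131 to 0.0385. In siPRMT5 cells it was lost without siPRMT5 Eth replicate 2 (0.0444) or 3 (0.01) or siPRMT5 Dex replicate 2 (0.0398) and with the libraries of the comparison alone (0.0153), in a range of 0.00138 to 0.0444. HP1γ depletion raised DUSP10 with Eth (log2 fold change 0.71, SE 0.162, adjusted p = 0.00146) and with Dex (0.79, SE 0.187, adjusted p = 0.00285), with no overlap and in all 25 alternatives. After PRMT5 depletion the libraries overlapped with siNS (log2 fold changes 0.14 and 0.15, adjusted p = 0.55 and 0.585). The means ran siHP1g Eth (9.98 ± 0.491 CPM, SD, n = 3), siPRMT5 Eth (6.77 ± 1.56), siHP1g Dex (6.13 ± 0.893), siNS Eth (6.1 ± 0.982), siPRMT5 Dex (3.96 ± 0.59) and siNS Dex (3.53 ± 0.233), where the middle 3 overlapped with each other and the last 2 did too.

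DUSP16, directed at JNK and p38 and encoded at chr12:12473282-12562863, rose with HP1γ depletion. It was at 59.6, 61.9 and 61.9 CPM in siNS Eth libraries and at 102, 91.7 and 93.6 CPM in siHP1g Eth libraries. The groups did not overlap, and the log2 fold change was 0.65 (SE 0.0738, adjusted p = 2.84e-07). With Dex it was at 64.2, 64 and 66.6 CPM in siNS cells and at 77.2, 90.2 and 85.8 CPM in siHP1g cells, still higher in every depleted library (log2 fold change 0.38, SE 0.0732, adjusted p = 0.000413). After PRMT5 depletion DUSP16 was at 55.8, 63.3 and 62.6 CPM in siPRMT5 Eth libraries, overlapping with siNS Eth (log2 fold change −0.01, adjusted p = 0.903). In siPRMT5 Dex libraries it was at 50.3, 50.1 and 51.4 CPM, below every siNS Dex library (log2 fold change −0.36, SE 0.0755, adjusted p = 0.00038). Dex gave DUSP16 log2 fold changes of 0.09 in siNS cells (adjusted p = 0.547), −0.18 in siHP1g cells (adjusted p = 0.164) and −0.26 in siPRMT5 cells (adjusted p = 0.0189), none of them called. Its response in siPRMT5 cells differed from that in siNS cells by −0.35 (adjusted p = 0.0674), which passed without siPRMT5 Eth replicate 1 (adjusted p = 0.049) or siHP1g Dex replicate 1 (0.0441), in a range of 0.0441 to 0.177. The means ran siHP1g Eth (95.7 ± 5.29 CPM, SD, n = 3), siHP1g Dex (84.4 ± 6.58), siNS Dex (64.9 ± 1.44), siNS Eth (61.1 ± 1.32), siPRMT5 Eth (60.6 ± 4.13) and siPRMT5 Dex (50.6 ± 0.693), and of neighbours siNS Eth and siPRMT5 Eth overlapped.

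PRMT5-depleted and HP1γ-depleted cells differed from each other in every tested member. With Eth 7 of 7 were called, where 48.4% of all genes were: DUSP4, DUSP6 and DUSP7 were higher in siPRMT5 cells, and DUSP1, DUSP5, DUSP10 and DUSP16 were lower. The widest gaps were those of DUSP6 (log2 fold change 1.23, adjusted p = 2.54e-14) and DUSP16 (−0.66, adjusted p = 5.44e-08). With Dex 7 of 7 were called, where 49.9% of all genes were, and DUSP1 changed sides: it was lower in siPRMT5 cells with Eth (−0.44, adjusted p = 9.09e-05) and higher with Dex (0.84, adjusted p = 4.76e-10). DUSP6 (0.89, adjusted p = 7.85e-12), DUSP7 (0.35, adjusted p = 0.000239) and DUSP4 (0.18, adjusted p = 0.0261) were again higher with Dex. DUSP5 (−0.54, adjusted p = 1.47e-07), DUSP10 (−0.64, adjusted p = 0.00569) and DUSP16 (−0.74, adjusted p = 8.29e-09) were again lower. The DUSP10 call was lost with Eth without siPRMT5 Eth replicate 1 (adjusted p = 0.0526, range 0.00126 to 0.0526) and with Dex without siPRMT5 Dex replicate 2 (0.0503, range 0.00235 to 0.0503). The DUSP4 call with Dex was lost without siPRMT5 Dex replicate 1 (0.0661) or 3 (0.06) or siHP1g Dex replicate 2 (0.0855), with library size only (0.171), no filter (0.12) or the libraries of the comparison alone (0.0723), in a range of 0.0096 to 0.171.

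Tested as a difference from the response in siNS cells, the Dex response changed with PRMT5 depletion in 3 of 7 members, where 3.8% of all genes passed: the difference was positive for DUSP1 and negative for DUSP5 and DUSP6. With HP1γ depletion edgeR called 0 of 7, where 0.399% of all genes passed. At an unadjusted p under 0.05 the count was 3 (DUSP5, DUSP6 and DUSP16), and DESeq2 also called 0. The values for those 3 were −0.21 (adjusted p = 0.251), −0.18 (adjusted p = 0.282) and −0.27 (adjusted p = 0.191). Without siHP1g Dex replicate 1, the library furthest from its replicates, 5 members were called in siPRMT5 cells in place of 3, with DUSP4 (adjusted p = 0.0435, range 0.0202 to 0.169) and DUSP16 (0.0441, range 0.0441 to 0.177) added.

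**Figure D2:**
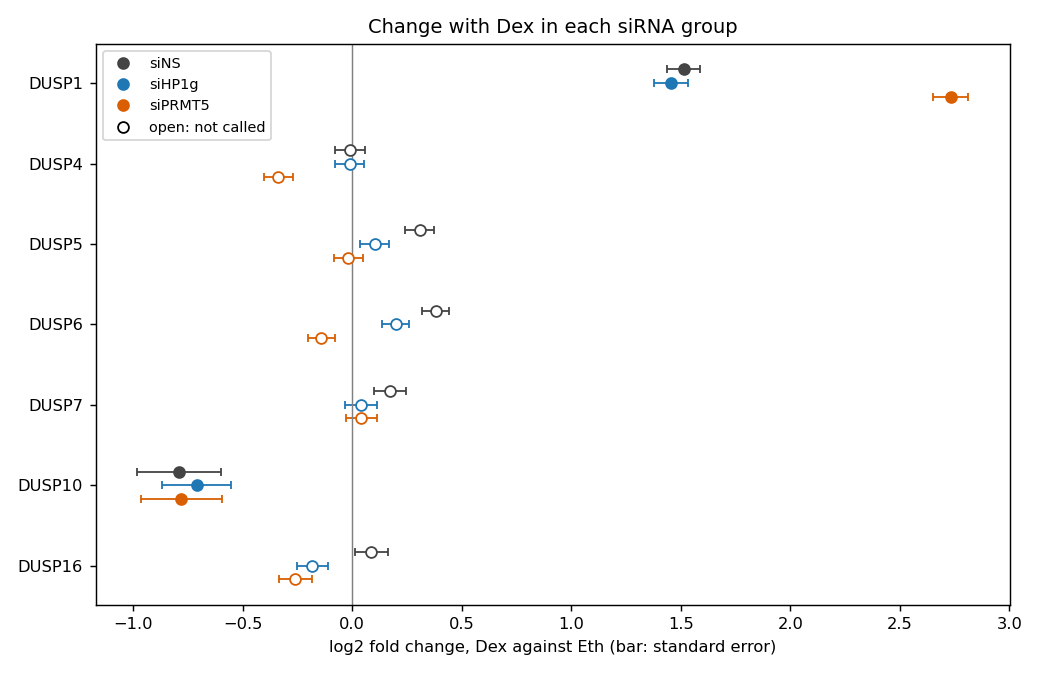
Log2 fold change with Dex against Eth for each tested member in siNS, siHP1g and siPRMT5 cells; points are the fitted values (open where not called) and the bars their standard errors. DUSP1 reached 2.73 in siPRMT5 cells against 1.51 in siNS cells, DUSP10 was negative in all 3, and DUSP6 ran from 0.38 in siNS cells to −0.14 in siPRMT5 cells.

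DUSP1 rose with Dex, as did most other glucocorticoid targets. Of 18 tested genes of that list, 15 rose in siNS cells, where 1.65% of all genes did, and none fell (median log2 fold change 1.64, against 0.00 over all genes), among them ANGPTL4 (3.14), KLF9 (2.82) and BIRC3 (2.82). In siHP1g cells 13 rose (median 1.199, 1.01% of all genes) and in siPRMT5 cells 16 (median 1.91, 2.69% of all genes). The Dex response of 5 of the 18 was smaller in siHP1g than in siNS cells, where 0.399% of all genes differed, among them MT1X (−1.21) and PER1 (−0.75). DESeq2 called 7, PER1 included and MT1X not, and it called 327 genes in all against 61 in edgeR, whose count ran from 20 to 186 with 1 library left out. The response of FKBP5 (0.84) and ERRFI1 (0.68) was larger in siPRMT5 cells, where 3.8% of all genes differed. The DUSP1 response was called larger in siPRMT5 cells as well, and it was not called as different in siHP1g cells. PRMT5 depletion with Eth raised 10 of the 18 and lowered 2 (20.6% and 21.6% of all genes), while DUSP1 fell (−1.04). With Dex, PRMT5 depletion raised 14 and lowered 0 (20.6% and 21.9%), where DUSP1 was higher only by the weak call above (0.18). HP1γ depletion raised 6 and lowered 3 with Eth (16.5% and 15.2%) and raised 3 and lowered 9 with Dex (11.7% and 12.3%), where DUSP1 was lower in both (−0.60 and −0.65). The change of DUSP1 with Eth was thus opposite to that of most of these genes that were called. It was in the same direction as that of FKBP5 (−0.33) and ERRFI1 (−0.56), the 2 that PRMT5 depletion lowered with Eth. These are also the 2 named above for a larger Dex response in siPRMT5 cells. FKBP5, like DUSP1, was lower with HP1γ depletion too (−0.57 with Eth and −1.01 with Dex). This was not particular to FKBP5, as SGK1 (−0.36 and −0.91) and GADD45B (−0.57 and −0.90) were also lower under both treatments. DESeq2, unlike edgeR, called the Dex response of FKBP5 different in siHP1g cells, and neither tool called that of DUSP1.

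The genes listed as ERK output outside the DUSP family did not all follow DUSP6. That list also holds the transcription factors ELK1, ELK3 and ELK4, so it is not a list of ERK-induced genes only. Of 24 tested, PRMT5 depletion with Eth raised 8 and lowered 8, where 20.6% and 21.6% of all genes were higher and lower (median log2 fold change 0.04, against 0.00 over all genes): SPRY1 (1.32), an ERK pathway inhibitor, and the transcription factor ETV1 (1.24) rose, as DUSP6 did, while ETV4 (−1.15), MYC (−0.92) and EGR1 (−0.88) fell. With Dex 8 rose and 10 fell (20.6% and 21.9% of all genes). HP1γ depletion raised 11 and lowered 4 with Eth (16.5% and 15.2% of all genes), among them SPRED3 (0.56), EGR1 (0.52) and MYC (−0.47), and raised 8 and lowered 3 with Dex (11.7% and 12.3%). In the Dex response HBEGF (−1.32) and PHLDA1 (−1.02) fell in siNS cells and none rose (8.33% called, against 2.71% of all genes). In siHP1g cells 3 of the 24 fell (against 1.67% of all genes called), and in siPRMT5 cells 3 fell and 2 rose (20.8% against 5.44%), AREG (1.60) and MYC (0.64). The difference of response between siPRMT5 and siNS cells was positive for 4 (16.7%, against 3.8% of all genes called in either direction), AREG (1.04), EPHA4 (0.67), MYC (0.45) and ELK3 (0.33), where it was negative for DUSP5 and DUSP6, and in siHP1g cells HBEGF differed by 0.44. DESeq2 called 3 of those 4, without EPHA4.

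**Figure D3:**
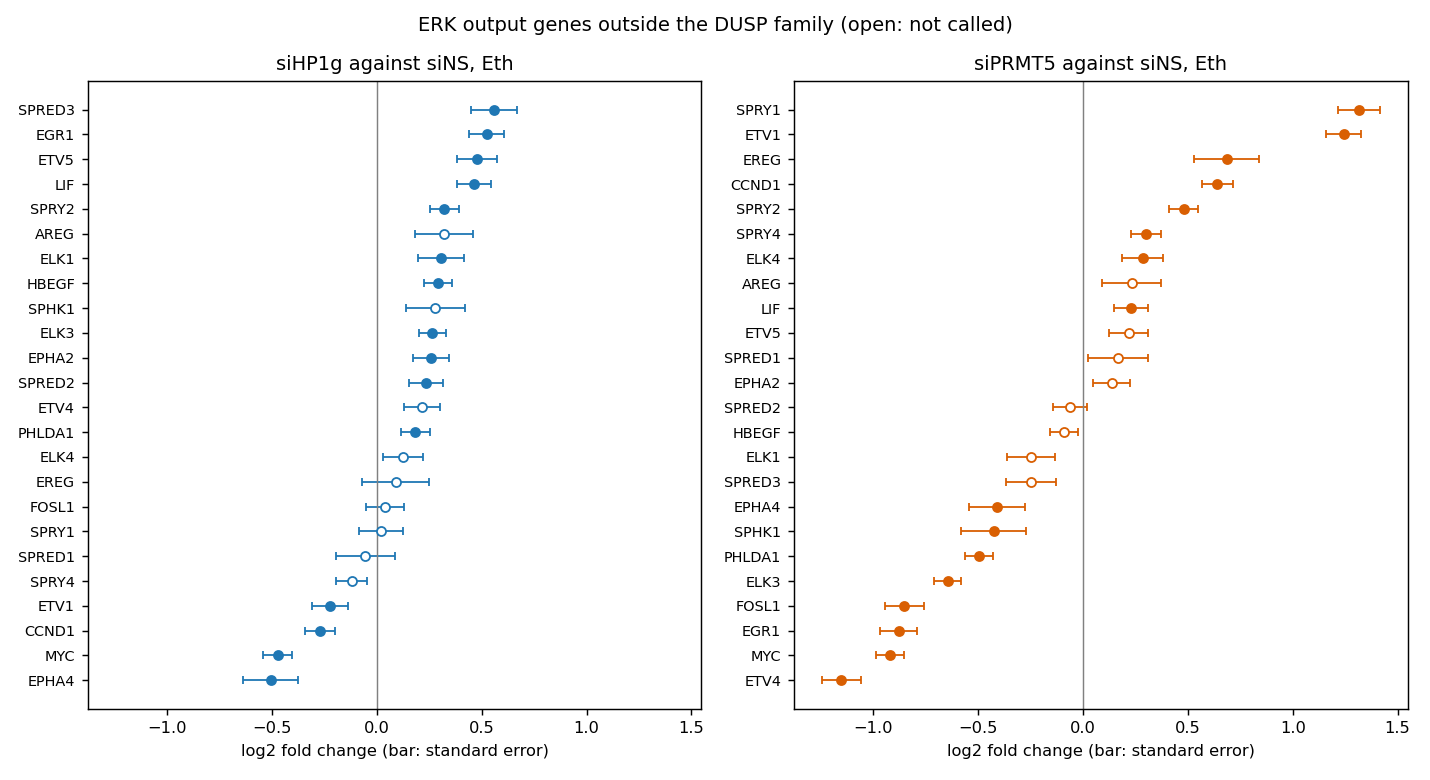
Log2 fold change of the 24 tested ERK output genes outside the DUSP family with HP1γ depletion (left) and PRMT5 depletion (right) against siNS with Eth; bars are standard errors and open points were not called. SPRY1 (1.32) and ETV1 (1.24) rose with PRMT5 depletion, and ETV4 (−1.15), MYC (−0.92) and EGR1 (−0.88) fell.

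The MAP kinase cascade list holds genes of the kinases these phosphatases act on, of their activators, and of downstream kinases such as MKNK2. Among its 34 tested genes, PRMT5 depletion with Eth raised 12 and lowered 7 (55.9% called, against 42.1% of all genes). With Dex it raised 12 and lowered 12 (70.6% against 42.4%). MAP2K6, an activator of p38, rose (2.34 with Eth) and MAPK3, which encodes ERK1, fell (−1.23 with Eth, −1.66 with Dex). HP1γ depletion raised 8 and lowered 5 with Eth (38.2% against 31.8%), and raised 5 and lowered 6 with Dex (32.4% against 24%), with lower MAPK14, which encodes p38α (−0.71 and −0.68). Dex raised MAP2K1 in siNS (0.66), siHP1g (0.80) and siPRMT5 (0.83) cells, with 2, 1 and 1 cascade genes higher and 0, 0 and 1 lower. The shares called were 5.88%, 2.94% and 5.88%, against 2.71%, 1.67% and 5.44% of all genes, so in siPRMT5 cells the share was near that of all genes. The Dex responses in siPRMT5 and siNS cells differed for KSR1 (by −0.82), which had 0.07 in siNS cells (adjusted p = 0.832) and fell in siPRMT5 cells (−0.75), and for MKNK2 (by −0.53), which rose in siNS cells (0.76) and had 0.23 in siPRMT5 cells. These were 5.88% of the list, against 3.8% of all genes. In siHP1g cells edgeR and DESeq2 each called 0, where edgeR called 0.399% of all genes, with 5 at an unadjusted p under 0.05 in edgeR.

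The 16 tested dual-specificity phosphatases outside the 10 members had 0 called Dex responses by edgeR and 0 by DESeq2 in siNS, siHP1g and siPRMT5 cells, with 4, 3 and 6 at an unadjusted p under 0.05 in edgeR. Over all genes edgeR called 2.71%, 1.67% and 5.44%, which for 16 genes is less than 1 in each kind of cell. In siHP1g cells their responses also had 0 called differences by both tools (0.399% of all genes in edgeR), with 4 at an unadjusted p under 0.05. PRMT5 depletion raised 4 and lowered 3 of them with Eth, and raised 3 and lowered 4 with Dex, 43.8% in each case, close to the 42.1% and 42.4% of all genes, the strongest being DUSP3, a phosphatase of ERK and JNK (−1.17 and −1.24). HP1γ depletion raised 4 and lowered 3 with Eth (43.8% against 31.8%) and raised 1 and lowered 2 with Dex (18.8% against 24%). The responses of SSH1 differed by −0.43, from 0.23 in siNS cells (adjusted p = 0.0517) to −0.20 in siPRMT5 cells (adjusted p = 0.0534), and it was the 1 called difference of the 16 in siPRMT5 cells. Of 19 tested immediate early genes, the rapid transcriptional targets of MAP kinases, 2 rose and 2 fell with Dex in siNS cells (21.1% called, against 2.71% of all genes), 1 rose and 4 fell in siHP1g cells (26.3% against 1.67%), and 1 rose and 4 fell in siPRMT5 cells (26.3% against 5.44%), with JUN falling in each (−1.30, −0.79 and −1.44). PRMT5 depletion raised 5 and lowered 6 with Eth (57.9% against 42.1%) and raised 2 and lowered 8 with Dex (52.6% against 42.4%). HP1γ depletion raised 5 and lowered 4 with Eth (47.4% against 31.8%) and raised 4 and lowered 6 with Dex (52.6% against 24%), and the response of JUN differed in siHP1g cells (0.51). In siPRMT5 cells edgeR and DESeq2 each called 0 differences of response, where edgeR called 3.8% of all genes, with 6 at an unadjusted p under 0.05 in edgeR.

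Over the 18 libraries, which share 6 conditions, the members fell into partly opposed patterns. Log2 CPM of DUSP6 and DUSP7 had a Pearson correlation of 0.909, and DUSP4 had 0.825 with DUSP6 and 0.772 with DUSP7. DUSP5 had −0.747 with DUSP6 and 0.713 with DUSP16, and DUSP1 had −0.797 with DUSP10. Of 11410 genes searched, the most alike were DKK1 (0.976), MAOA (0.973) and EPS8 (0.971) for DUSP1, and PIK3IP1 (0.969), KDM3A (0.963) and VRK3 (0.951) for DUSP4. For DUSP5 they were FAM78A (0.957), KIAA0930 (0.957) and TBC1D14 (0.954), for DUSP6 PIK3R3 (0.975), VIPR1 (0.969) and SUN2 (0.967), and for DUSP7 BCAM (0.948), GLB1 (0.946) and MXD4 (0.942). DUSP10 was alike to LTBP2 (0.94) and WDR26 (0.925), and DUSP16 most like CDYL (0.98), HSPA12A (0.974) and BAZ2A (0.973). These are descriptions of shared differences between conditions.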

How the data were processed

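The 10 members and the gene lists were chosen with earlier results of these data known. The authors deposited counts of reads per gene symbol, 1 table for each of 18 libraries prepared with Lexogen kits and read on a NextSeq instrument. Per the submitters' processing notes, reads were mapped on hg38 with Bowtie2 2.4.2 and counted with HTSeq 0.9.1. Bowtie2 does not split a read over an intron, so reads across exon junctions may be lost. Strand setting, gene annotation and read length were not given in the sources used here. A table of the authors' own comparisons, made with DESeq2 2.11.40.7, was not used.

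Counts were fitted in R 4.3.3 with edgeR 4.0.16: filterByExpr, TMM scaling, 1 mean per condition, 12 residual degrees of freedom, quasi-likelihood F tests, and Benjamini-Hochberg adjustment over all 15298 genes. Dex responses were called at an adjusted p under 0.01 and at least 1.5-fold, other comparisons at an adjusted p under 0.05. Standard errors were taken from the fold change and F, and 95% intervals from the moderated degrees of freedom. CPM uses TMM-scaled totals. The pipeline was tested on simulated data. Alternatives were DESeq2 1.42.0, DESeq2's size factors, library size only, no filter, at least 10 counts in every library, other fold limits, a replicate block, a fit to the compared libraries alone, and leaving out each library in turn.

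From 5 lists (other dual-specificity phosphatases, ERK output genes, immediate early genes, MAP kinase cascade, glucocorticoid targets), up to 5 called genes with the largest log2 fold change in size could be named; EGR1 and ZFP36 are each in 2 lists. Up to 3 most alike genes were named, those with the highest Pearson correlation of log2 CPM (prior count 2) among tested genes whose mean reached 5 CPM. Promoters came from RefSeq (GRCh38.p14), gene positions and exons from GENCODE 44, and words of 31 bases were searched with Python 3.11.15 and numba 0.67.0 over 455 hg38 sequences, 261 of them alternate contigs.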

Additional observations from a re-analysis of the deposited data

Results flagged for a closer look

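The Dex response differed between depleted and siNS cells, by a test of the difference itself, in these genes. In siPRMT5 minus siNS cells the log2 difference was 1.22 for DUSP1, −0.32 for DUSP5 and −0.52 for DUSP6. The call held in 25 of 25 alternatives for DUSP1 and DUSP6 and in 8 for DUSP5, with adjusted p up to 0.168. Outside the members it was −0.43 for SSH1, 0.67 for EPHA4, 0.45 for MYC, 1.04 for AREG, 0.33 for ELK3, −0.53 for MKNK2, −0.82 for KSR1, 0.84 for FKBP5 and 0.68 for ERRFI1. In siHP1g minus siNS cells it was 0.44 for HBEGF, 0.51 for JUN, −1.0 for TSC22D3, −0.75 for PER1, −0.69 for KLF9, −0.55 for SGK1 and −1.21 for MT1X. The genes outside the members were compared with DESeq2 alone, which did not call the difference of EPHA4 in siPRMT5 cells or of MT1X in siHP1g cells. From the same lists DESeq2 added MAPK13 in siPRMT5 cells and BIRC3, FKBP5 and ZFP36 in siHP1g cells. No DUSP member was among the genes of siHP1g cells.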

How the results depend on the processing

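Of 41 called results for the members, each run under 25 alternatives, 32 kept the call under all of them and 9 lost it under at least 1. Of the 1025 combinations, 973 kept direction and call, 52 kept the direction and lost the call, and none reversed. The count of members with a Dex response (2 in each kind of cell) became 1 in siNS, siHP1g and siPRMT5 cells with a fold limit of 2 and, with no fold limit, 4 in siNS cells, 3 in siPRMT5 cells and 2 in siHP1g cells. It became 1 in siHP1g cells with DESeq2, and 1 in siHP1g and siPRMT5 cells with the libraries of the comparison alone; the cause was not tested. With 1 library left out at a time it ranged from 1 to 2 in each kind of cell. The count of changed responses in siPRMT5 cells was 3 and ranged from 2 to 5.

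With the replicate block the counts of members were 2, 2 and 2 for Dex in siNS, siHP1g and siPRMT5 cells, 4 and 3 for HP1γ depletion with Eth and Dex, 5 and 6 for PRMT5 depletion, 7 and 7 between the depletions, and 0 and 3 for the differences of response, as without it. Libraries of the same number did not pair: over 45 pairs from different conditions the correlation of deviations from the condition mean ran from −0.186 to 0.315 (median 0.007), and a library was closest to its own number in 35 of 90 cases.

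Over all genes, the Dex calls of 414, 255 and 832 in siNS, siHP1g and siPRMT5 cells became 194, 106 and 373 with a fold limit of 2 and 808, 504 and 1569 with no limit. Differences of response in siHP1g cells (61) became 374 with no filter, 327 with DESeq2 and 94 with the replicate block, and 20 to 186 with 1 library left out. In siPRMT5 cells (582) they ran from 319 to 897, the highest without siHP1g Dex replicate 1. With library size only, the share of called genes that were higher went from 52.1% to 63.8% for HP1γ depletion with Eth and from 48.7% to 69.2% with Dex. The cause was not tested. DUSP10 and DUSP2 are limited by depth, with at most 117 and 1 counts per library.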
